A study of Vitis vinifera with 12 samples.

Results

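The miR172 family of grapevine (Vitis vinifera) was followed in 6 tissues on a custom oligonucleotide array that carries probes against conserved miRNA precursors. Its members were found by sequence: a perfect match probe was taken as a miR172 probe when its complement shared an ungapped run of at least 18 bases with a mature miR172 sequence of the study. The rule found 7 probes with 6 different sequences, out of 207 probes with 141 different sequences for mature miRNAs and out of 1947 perfect match miRNA probes in all. They cover 2 of the 72 mature sequences on the array, miR172c and the sequence that miR172a, miR172b and miR172d have in common, here called miR172d. The RefSeq annotation of the grapevine assembly ASM3070453v1 lists 4 genes, MIR172A, MIR172B, MIR172C and MIR172D. For 3 of them, MIR172A, MIR172B and MIR172D, the study lists the miR172d sequence, and on that listing these probes cannot tell them apart.

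miR172 is a plant miRNA that acts on mRNAs of APETALA2-like transcription factors. In Arabidopsis it reduces the translation of these mRNAs as well as cleaving them, it takes part in the timing of flowering and in the identity of floral organs, and its level rises with plant age while that of miR156 falls. miR156 acts on mRNAs of SPL transcription factors, some of which promote the transcription of miR172 genes.

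Low molecular weight RNA of the cultivar Corvina was labelled with Cy5 and hybridized to 12 arrays, 2 for each tissue. Green berries (the preveraison stage) were taken 5 weeks after flowering, berries at veraison, the onset of ripening, at 9 weeks and mature berries at 15 weeks, all without seeds. Roots were grown in vitro. Young inflorescences, taken 3 weeks before flowering, leaves of plants before flowering and berries came from the field, so that organ and way of growth cannot be told apart in comparisons with roots. Each array had its own RNA extraction. Nothing in the labels or methods says that the extractions of a tissue are from separate plants, so p-values measure the spread between these arrays, which may be technical. The array holds no gene that could serve as a marker of tissue identity. Between arrays the median intensity of the miRNA probes ranged from 3.5 to 232 scanner units, and the background level from 666 to 4353, taken by the methods' rule as the mean plus 2 SD of 14 negative and degradation controls.

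The sequences decide which molecule each probe can bind and are therefore shown as the RNA that would pair with the probe along its whole length, with bases 2 to 8 in capitals, the positions of the seed when the miRNA starts at the first base shown.
Probe 49: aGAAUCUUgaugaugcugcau
Probe 572: aGAAUCUUgaugaugcugca
Probe 48: gGAAUCUUgaugaugcugcag
Probe 569: gGAAUCUUgaugaugcugca
Probes 1879 and 1882: gAAUCUUGaugaugcugcau
Probe 1880: gAAUCUUGaugaugcugca
Probe 49 equals miR172d over all 21 bases, and probe 572 lacks its last base. Probe 48 holds the 20 bases of miR172c as the study lists it, with 1 base more at the 5′ end, and probe 569 lacks the last base of probe 48. The complements of probes 48 and 49 differ only at their ends, by A1G and T21G (miR172d first, counted from the 5′ end of the complement). Probe 1880 holds the 19 bases that both miRNAs share, and probes 1879 and 1882 have 1 and the same sequence, which lacks the first base of miR172d. Since 19 bases are common to all 7 probes, each of them could pair with either miRNA over that stretch, and the probes are not independent measurements of separate miRNAs.

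Every probe has a mismatch partner in which 2 bases are replaced, shown here as the probe itself, from its 5′ end, with the replaced bases in capitals.
Mismatch partner of probe 49: atgcagAatcatAaagattct
Mismatch partner of probe 1880: tgcagAatcatAaagattc
The replacements are C7A and C13A in the partners of probes 48, 49, 1879 and 1882, and C6A and C12A in those of probes 569, 572 and 1880.

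Before normalization, miR172 signal was brightest on 1 array of green berries and 1 array of leaves and dimmest on both arrays of roots for each of the 7 probes except probe 569. The arrays differed in brightness, and ranks within the array gave another order. There the median miR172 probe stood above 51.7% and 65.3% of the miRNA probes in roots (replicates 1 and 2). It stood above 57.8% and 56.2% in mature berries and above 76.3% and 61.6% at veraison. Probe 49, which equals miR172d, read 748 and 1545 in green berries, 331 and 501 at veraison, 270 and 612 in mature berries, 46.0 and 61.5 in roots, 845 and 879 in inflorescences, and 1883 and 303 in leaves (scanner units before normalization, replicates 1 and 2). The root arrays lay below all others, and the 2 leaf arrays were the highest and the fourth lowest of the 12. Probe 48, for miR172c, read 1012 and 2174 in green berries, 389 and 503 at veraison, 269 and 725 in mature berries, 74.5 and 125 in roots, 1145 and 1036 in inflorescences, and 1331 and 158 in leaves. Its highest value was that of green berries replicate 2, and again both root arrays lay below the rest.

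The shorter probes were likewise brightest on green berries replicate 2 or leaves replicate 1. Probe 572 read 694 and 2282 in green berries, 317 and 233 at veraison, 202 and 130 in mature berries, 80.5 and 107 in roots, 832 and 255 in inflorescences, and 1778 and 324 in leaves. Probe 569 read 548 and 2444 in green berries, 232 and 129 at veraison, 181 and 94.0 in mature berries, 94.0 and 132 in roots, 934 and 185 in inflorescences, and 1084 and 214 in leaves. For this probe, mature berries replicate 2 was as low as roots replicate 1. The common core, probe 1880, read 616 and 995 in green berries, 151 and 100 at veraison, 214 and 156 in mature berries, 10 and 30 in roots, 458 and 115 in inflorescences, and 741 and 94.0 in leaves. Root arrays were the lowest here as well, and green berries replicate 2 the highest. Probe 1879 ranged from 13 to 668 and probe 1882 from 5.0 to 699.5, with a median of 117 and 115. As these have the same sequence, they show the error of a probe position: their log2 ratio had an SD of 0.59 over the 12 arrays, with a median size of 0.22 and a largest size of 1.38 in roots replicate 2.

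**Figure D1:**
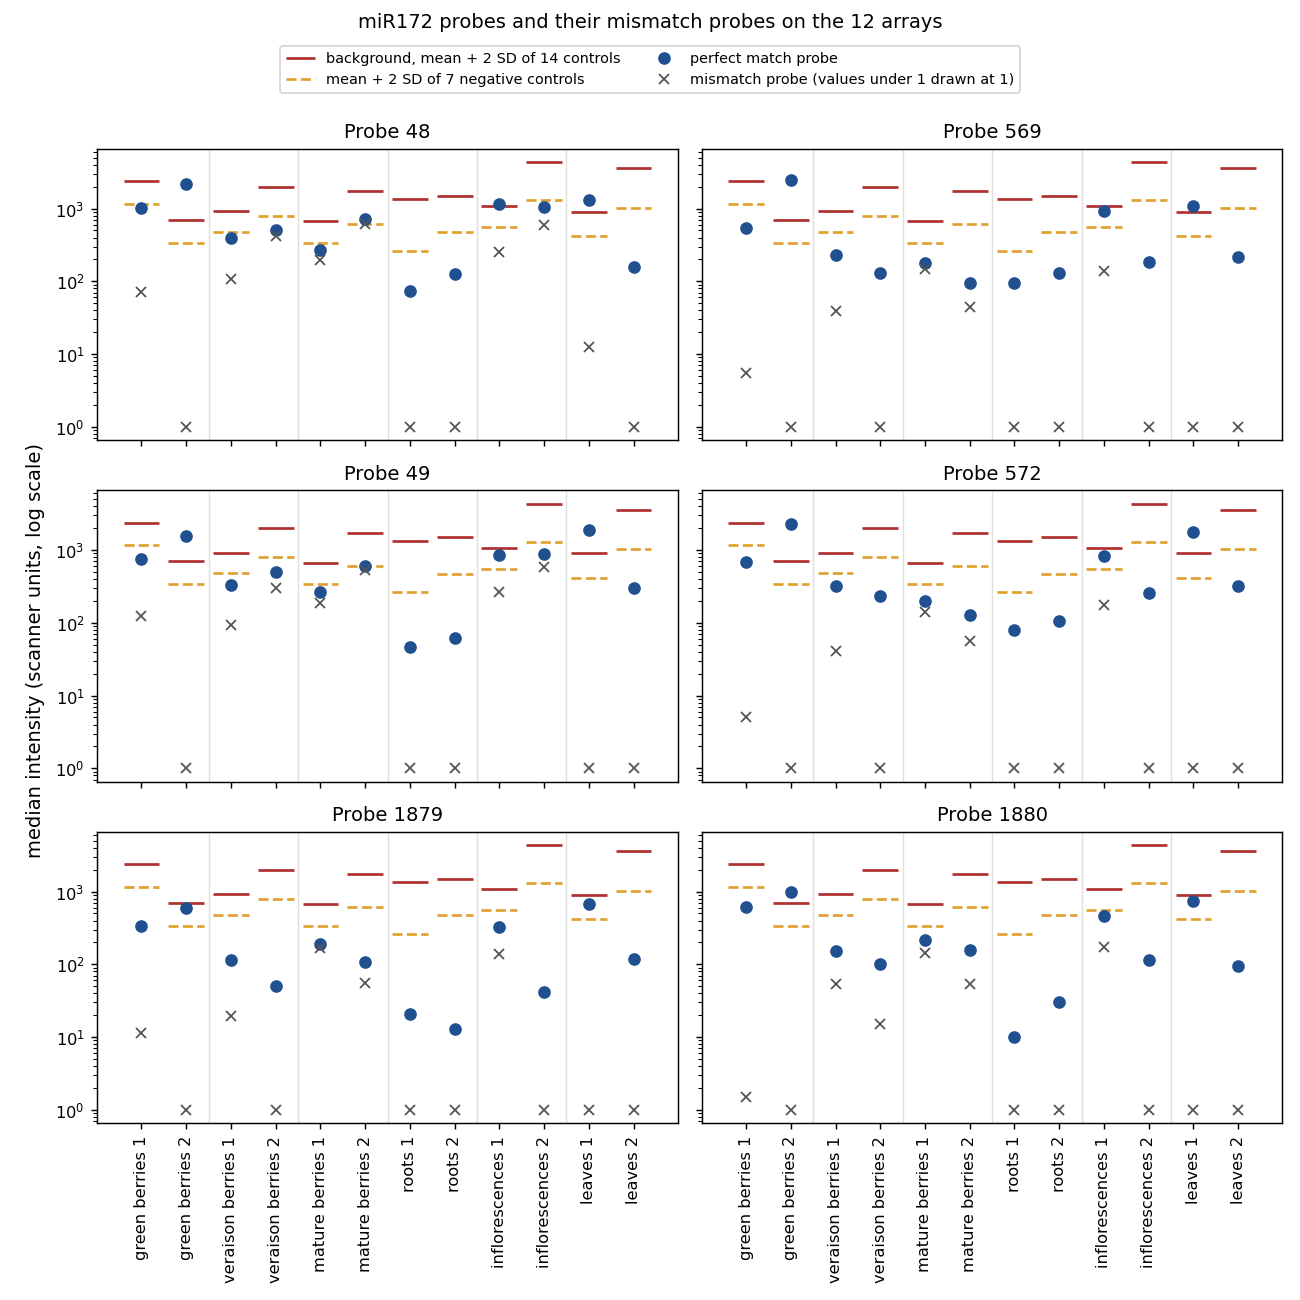
Median intensity (scanner units, log scale) of the 6 different miR172 probes (points) and their mismatch partners (crosses, values under 1 drawn at 1) on each of the 12 arrays, with the background level of 14 controls (solid line) and the level of 7 negative controls (dashed line). Perfect match points lie above the solid line on green berries replicate 2, leaves replicate 1 and, for probe 48, inflorescences replicate 1.

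Few of these values exceeded the controls. Above the background of 14 controls lay 5 of the 7 probes on green berries replicate 2, where that level was 697, 4 on leaves replicate 1, where it was 912, and probe 48 alone on inflorescences replicate 1 (1145 against a level of 1071). The 7 probes read above 86.3% to 95.0% of the perfect match miRNA probes on green berries replicate 2. On leaves replicate 1 this was 88.0% to 96.7%, and on inflorescences replicate 1 it was 72.5% to 91.1%. On the other 9 arrays, both root arrays and all arrays of veraison and mature berries included, no miR172 probe was above the background of 14 controls. The array that was bright in a tissue was the one with the lower background: leaves replicate 2 had a level of 3586, inflorescences replicate 2 of 4353 and green berries replicate 1 of 2374. Against the 7 negative controls alone, the mean plus 2 SD was exceeded by all 7 probes on green berries replicate 2 (level 342) and on leaves replicate 1 (level 418), by 4 probes on inflorescences replicate 1 (level 557) and by probes 48 and 49 on mature berries replicate 2 (level 608), and by none on the other 8 arrays.

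The methods call a probe present when its signal is above the background of 14 controls and the ratio to the mismatch partner exceeds 1.2. The methods do not say over how many arrays a probe has to pass, and both arrays of a tissue were required here. By this rule 43 of the 141 mature probes (30.5%) were present in at least 1 tissue and none of the miR172 probes was, in 0 of 42 combinations of probe and tissue. The call turned on the number of arrays required and on the control level. Where either array sufficed, miR172 was present in 3 tissues, green berries with 5 probes, inflorescences with 1 and leaves with 4, or 10 of the 42 combinations. Without the ubiquitin control, miR172 was present in 2 tissues (green berries and inflorescences, with 1 probe each), and with the median plus 2 scaled MAD (median absolute deviations) as the level it was present in 4, namely green berries with 5 probes, veraison berries with 1, inflorescences with 3 and leaves with 7. Roots and mature berries had no present miR172 probe under any of these settings. The share of all mature probes is given only for the rule with both arrays, so the other counts cannot be set beside it.

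The perfect match probes read more than their mismatch partners on 12 of 12 arrays for each of the 7 probes. Averaged over the arrays, the log2 ratio was 3.99 ± 3.58 for probe 48, 4.11 ± 3.99 for probe 49, 5.88 ± 3.46 for probe 569, 6.10 ± 3.58 for probe 572, 4.35 ± 3.06 for the mean of probes 1879 and 1882, and 4.80 ± 3.42 for probe 1880 (SD, n = 12). An exact two-sided permutation test that flips the sign of each array gave p = 0.000488 for each probe, the smallest that 12 arrays can give, and an adjusted p of 0.00085 over the 141 mature probes. Of those, 123 (87.2%) passed in either direction, so this result is shared by most mature probes. The size of the ratio depends on mismatch values at or under the floor of 1, which made up 4 to 7 of the 12 arrays of a probe. With intensities floored at 50 the mean log2 ratio over the 6 different probes was 1.91 instead of 4.87.

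Perfect match values also stood apart from mismatch values on arrays with no probe above background. In roots, where no probe was above background, perfect match values of 5.0 to 132 stood against mismatch values of 1 on both arrays. On roots replicate 1, however, the median of the 7 negative controls was 62.5. Probes 1880, 1879, 1882 and 49 read less than that (10, 20.5, 30 and 46), and probes 48, 572 and 569 more (74.5, 80.5 and 94). The values under that median are not shown to be miR172 signal by their ratio to the mismatch partner. On roots replicate 2 the median of these controls was 4, below all 7 probes. Leaves replicate 2, with perfect match values of 94.0 to 324, likewise had all mismatch values at 1. Mature berries replicate 1 was the opposite, with perfect match values of 181 to 270, mismatch values of 135 to 195 and ratios of 1.12 to 1.52.

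The mismatch partners of probes 48 and 49 read highest on 3 arrays. On inflorescences replicate 2, veraison berries replicate 2 and mature berries replicate 2 the mismatch partner of probe 48 read 595, 421 and 617 scanner units, and that of probe 49 read 580, 302 and 533, whereas on the other 9 arrays neither partner exceeded 263. Replicate spots disagreed there: the SD between spots was 86.9% to 99.8% of the median for these mismatch values and 43% to 79.99% for the perfect match values of the same probes. Probes 569 and 572, which lack only the last base, read 94.0 to 255 on these arrays with mismatch values of 1 to 57. The part of the uneven spots in the levels of probes 48 and 49 was not tested. A fit without these 3 arrays was added as an alternative chosen after seeing the data. It leaves 1 array in each of these 3 tissues, so its calls cannot show an effect of the uneven spots. Green berries replicate 1, kept in that fit, had uneven spots as well. There the mismatch partners of probes 48 and 49 read 71 and 124, with an SD of 251% and 157% of the median. Perfect match SDs were 39.5% and 36.1% for these 2 probes and 3.0% and 5.8% for probes 569 and 572. For probes 1879, 1880 and 1882 they were 22.7%, 23.4% and 34.9%.

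Probes with related sequences were read on the same arrays. For 5 probes the complement differs from a miR172 probe by 1 to 3 substitutions, in capitals here.
Probe 46: TgaatcttgatgatgctAcat
Probe 1881: gaatcttgatgatgctCca
Probe 46 differs from probe 49 by A1T and G18A, and probe 1881 from probe 1880 by G17C only. Probe 1881 read 63.0 on green berries replicate 2, where probe 1880 read 995, and 19 on leaves replicate 1, where probe 1880 read 741. Probe 46 read 70.0 against 1545 for probe 49 on green berries replicate 2 and 66.5 against 1883 on leaves replicate 1. None of the 5 was above the background of 14 controls on any array. According to the study, its first prediction probably had the wrong strand for miR172a and miR172b. Whether any of these 5 probes was designed for that prediction was not established, so their readings are not a measure of specificity. On inflorescences replicate 2 and veraison berries replicate 2 probe 46 read more than probe 49 did, by 927 against 879 and 695 against 501; these are 2 of the 3 arrays with uneven spots. Probe 566 likewise read more than probe 569 on all 3 of those arrays (123%, 133% and 214% of it, on inflorescences, veraison berries and mature berries replicate 2). Probe 563, which has the same sequence as probe 566, read 1, 13 and 58 there, and less than probe 569 on all 12 arrays. On roots replicate 1, probe 1881 read 15 against 10 for probe 1880.

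Shifted probes cover the same precursors but start 5 bases further upstream, and share 15 bases with the miR172 probes, in capitals here.
Probe 226, upstream of miR172c: atgtgGGAATCTTGATGATG
Probe 228, upstream of miR172d: agatgAGAATCTTGATGATG
On green berries replicate 2 they read 562 and 451, where probes 48 and 49 read 2174 and 1545, and on green berries replicate 1 they read 343 and 352, where probes 48 and 49 read 1012 and 748. Leaves replicate 1 gave 23 and 57, against 1331 and 1883 for probes 48 and 49. Relative to probes 48 and 49, the upstream probes read 25.9% and 29.2% on green berries replicate 2, 33.9% and 47.1% on green berries replicate 1, and 1.73% and 3.03% on leaves replicate 1. Like shares stood on arrays with higher readings throughout, such as inflorescences replicate 1 (30.7% and 28.0%), veraison berries replicate 1 (30.6% and 29.3%) and mature berries replicate 1 (64.8% and 64.2%), where the probes for the opposite strand also read 63.0 to 219.5. Probes shifted 5 bases downstream (227 and 229) read 45.0 and 1 on green berries replicate 2, and those shifted by 10 bases to either side (568, 570, 571 and 573) read 1 to 24.5 there. The 8 probes for the opposite strand read 1 on that array and 1 to 220 over all 12. None of the shifted or opposite strand probes was above the background of 14 controls.

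**Figure D2:**
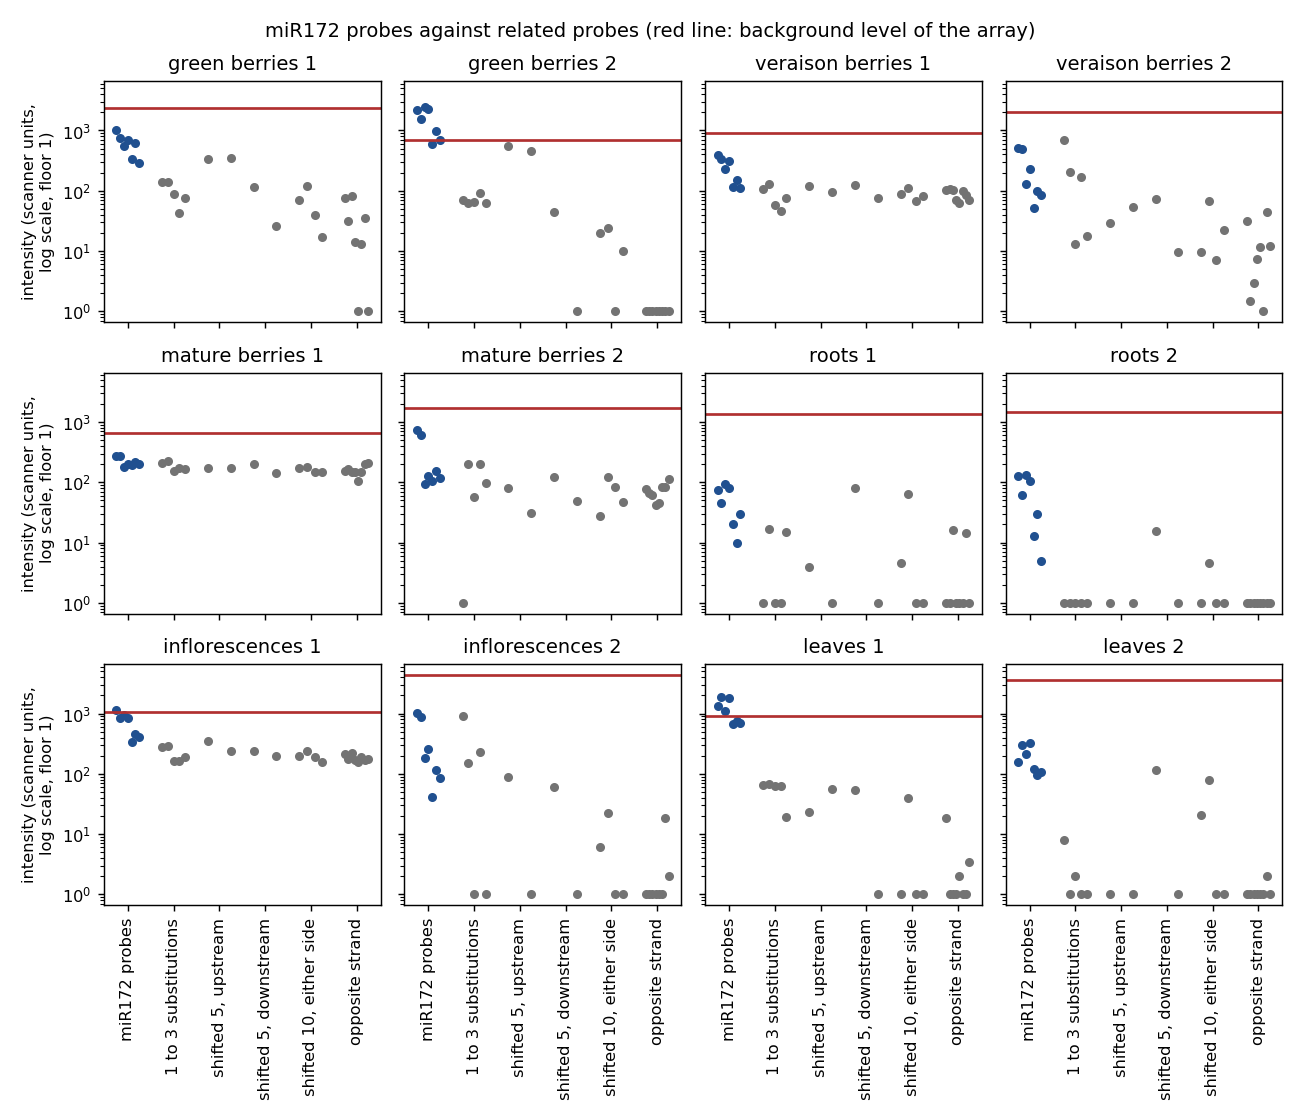
Intensity (scanner units, log scale, values under 1 drawn at 1) of the 7 miR172 probes (blue) and of related probes (grey) by class, 1 panel for each array, with the background level of 14 controls as a line. On green berries replicate 2 the 2 probes shifted 5 bases upstream, at 562 and 451, lie closest to the miR172 probes, and on leaves replicate 1 no related probe exceeds 67.

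For comparisons between tissues, intensities underwent quantile normalization over the 1947 miRNA probes, and log2 values were used. Averaged over the 6 different miR172 probes, the normalized level was 9.72 ± 1.09 in green berries, 7.67 ± 0.36 at veraison, 7.31 ± 0.22 in mature berries, 6.90 ± 0.55 in roots, 8.52 ± 1.05 in inflorescences and 9.37 ± 1.71 in leaves (SD, n = 2 each). Green berries, leaves and inflorescences were the 3 highest tissues for all 6 probes, in differing order, and their arrays overlapped except between green berries and inflorescences for probe 1880. Of the mature probes, 39.7% had no overlap between inflorescences and leaves and 48.9% none between green berries and inflorescences. Roots were lowest for probes 48, 49, 1879 and 1880, and mature berries for probes 569 and 572. Within leaves, replicate 1 exceeded replicate 2 for all 6 probes, by 1.91 to 2.84, while the median gap of the 141 mature probes between these arrays was 1.0. Green berries replicate 2 exceeded replicate 1 for all 6 by 1.12 to 2.20, while the median gap of the 141 mature probes between these arrays was 1.12. The 6 probes moved together, with pairwise correlations of 0.68 to 0.97 over the 12 arrays (median 0.88, 15 pairs of probes), given as a description since they share bases and arrays.

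**Figure D3:**
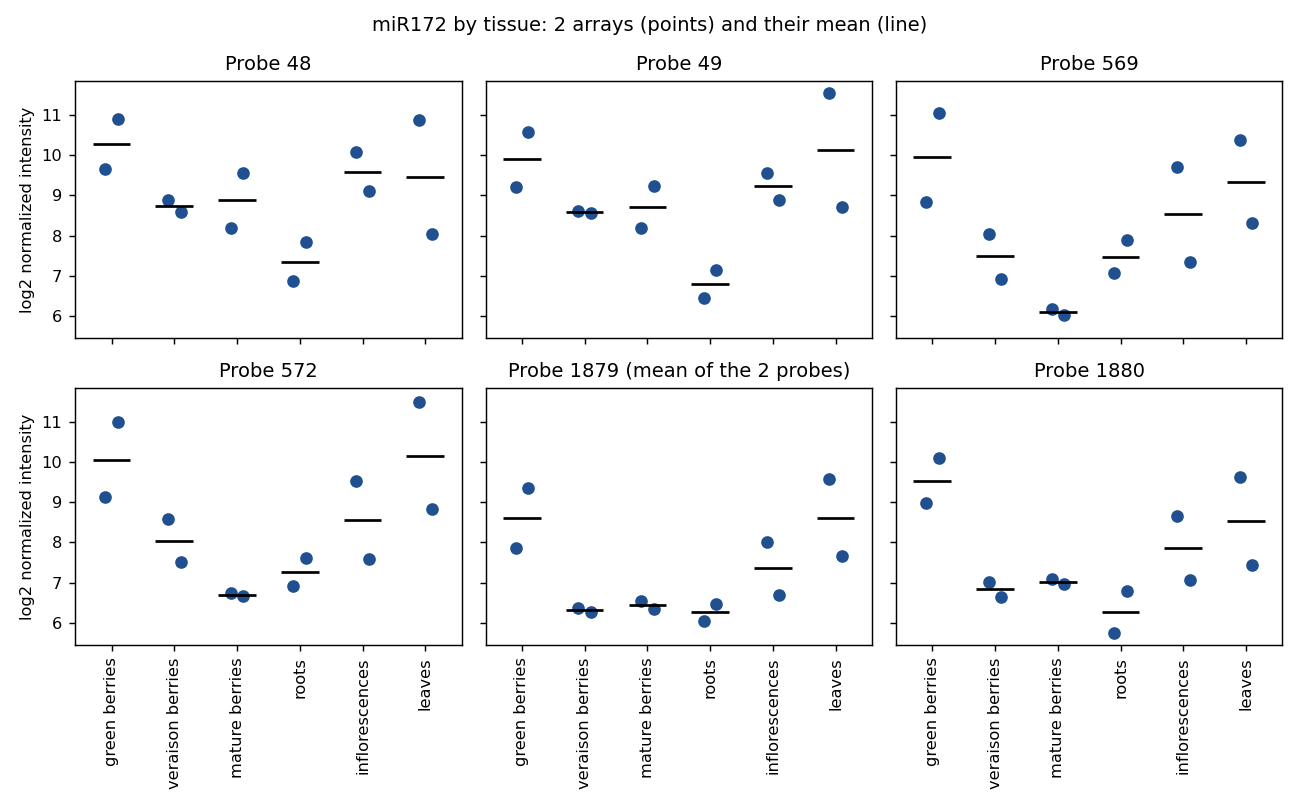
Log2 normalized intensity of the 6 different miR172 probes by tissue, 2 arrays (points, replicate 1 left) and their mean (line). Green berries lie above veraison berries for all 6 probes without overlap, and the 2 leaf arrays differ by 1.91 to 2.84.

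Over the 6 tissues, none of the 6 miR172 probes passed limma's moderated F test after Benjamini-Hochberg adjustment over the 141 mature probes, of which 40 passed (28.4%). Adjusted p was 0.053 for probe 1880, 0.054 for probes 572 and 1879, 0.061 for probe 569, 0.072 for probe 49 and 0.19 for probe 48, and 5 of the 6 had an unadjusted p under 0.05. These values lie close to the threshold of 0.05, and single arrays moved them across it: all 6 passed without leaves replicate 1 or replicate 2, where 66 and 53 of the 141 mature probes did, 4 without inflorescences replicate 1 or replicate 2, where 36 and 43 did, and 3 without green berries replicate 1, where 47 did.

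The differences between tissues that follow are between measured log2 values and are not fold changes of miR172. No array of veraison berries, mature berries or roots had a miR172 probe above background, so these tissues have only an upper bound. With the dimmer tissue set at the lowest normalized signal above background of its arrays, the ratio of the brighter tissue was under 1 for every miR172 probe and pair in which only 1 of the tissues had an array above background, so no fold can be given. The adjusted p-values compare signals that partly lie within the background.

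In ripening berries miR172 read highest before veraison. Probe 1880 averaged 9.54 ± 0.79 in green berries, 6.84 ± 0.26 at veraison and 7.03 ± 0.09 in mature berries on the log2 scale, and probe 569 averaged 9.94 ± 1.56, 7.49 ± 0.79 and 6.09 ± 0.11 in these stages (SD, n = 2). Both veraison arrays lay below both green berry arrays for 6 of 6 miR172 probes, against 25.5% of the mature probes, and both mature arrays for 5 of 6, against 22.7%. None passed the F test over the stages, with adjusted p of 0.23 for probes 569, 572, 1879 and 1880, 0.60 for probe 48 and 0.68 for probe 49. No mature probe of any family passed (0%), although 15 of the 141, 4 miR172 probes among them, had an unadjusted p under 0.05 in limma. A limma fit of the 6 berry arrays alone called 3 of the 6 miR172 probes among 8 of the 141. The one-way test of the methods on the values of these arrays gave an unadjusted p under 0.05 for 8 mature probes, 1 of miR172 among them, and for none after adjustment.

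Veraison minus green was -1.55 ± 0.90 for probe 48, -1.30 ± 0.86 for probe 49, -2.46 ± 0.97 for probe 569, -2.02 ± 0.95 for probe 572, -2.30 ± 0.74 for probe 1879 and -2.70 ± 0.80 for probe 1880 (log2, SE from limma, adjusted p 0.42 to 0.53). Their median was -2.16, against -0.19 for all mature probes, of which 0% passed, with 9 of them and 3 of the miR172 probes under 0.05 unadjusted. Mature minus green had a median of -2.34 over the 6 probes, between -3.85 for probe 569 and -1.17 for probe 49, against -0.02 for all mature probes, and again 0% passed (adjusted p 0.11 to 0.55, 4 of the 6 under 0.05 unadjusted). Mature minus veraison was within 0.19 of 0 for probes 48, 49, 1879 and 1880, and -1.39 and -1.34 for probes 569 and 572, for which both mature arrays lay below both veraison arrays, as for 14.9% of mature probes. None of the 6 had an unadjusted p under 0.05 there, and 0% of mature probes passed.

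Among organs, roots read lowest. Probe 49 averaged 6.79 ± 0.50 in roots, 9.22 ± 0.47 in inflorescences and 10.13 ± 2.01 in leaves (log2, SD, n = 2), and it alone of the 6 passed the F test over these organs, with an adjusted p of 0.029. Of the 141 mature probes 36 passed (25.5%), so 1 of 6 is not more than the share of all mature probes. The other 5 had adjusted p of 0.083 to 0.32.

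Roots minus leaves was -3.34 ± 0.86 for probe 49, with an adjusted p of 0.032, the only pair in which a miR172 probe passed, among 42 combinations of 7 pairs and 6 probes. Among the 141 mature probes 14 passed in this pair (9.93%). Probe 49 was below background on both root arrays and above it on 1 of the 2 leaf arrays, so the call sets values within the background against leaf arrays that differed widely. The other 5 probes gave -1.86 to -2.89 with adjusted p of 0.077 to 0.22, and the median of the 6 was -2.31, against -0.15 for all mature probes. Both root arrays lay below both leaf arrays for 6 of 6 miR172 probes, and for 34% of all mature probes. The call for probe 49 was lost without leaves replicate 1, either root array or either veraison array, and with quantile normalization over all probes, scaling to the positive controls, the deposited normalized table or adjustment over all perfect match probes, and without leaves replicate 2 the number of miR172 probes called in this pair was 5, among 29 of the 141. Scaling to the positive controls raised roots minus leaves for all mature probes together, to a median of 2.09, and on that scale the miR172 probes had a median of -1.35, between -2.22 and -0.03.

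Roots minus inflorescences was negative for all 6 probes, with a median of -1.44, against -0.48 for all mature probes, and a range of -2.43 for probe 49 to -1.05 for probe 569. None passed (adjusted p 0.053 to 0.44, 2 of 6 under 0.05 unadjusted), whereas 28.4% of the mature probes did. Both root arrays lay below both inflorescence arrays for 4 of 6 miR172 probes and for 44% of the mature probes. Inflorescences minus leaves ranged from -1.61 for probe 572 to 0.14 for probe 48 with adjusted p of 0.38 to 0.93, 0 of 6 under 0.05 unadjusted, and 4.26% of mature probes passed. For all 6 probes the inflorescence arrays overlapped with the leaf arrays, whereas 39.7% of the mature probes had no overlap in this pair. Green berries minus inflorescences was 0.67 to 1.67, with a median of 1.33 against -0.23 for all mature probes, and an adjusted p of 0.23 to 0.64. None of the 6 was under 0.05 unadjusted, 0% of mature probes passed, and only probe 1880 had both green berry arrays above both inflorescence arrays, as had 16.3% of mature probes.

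The probe for miR172c and that for miR172d share 19 bases and do not give separate levels of the 2 miRNAs. Probe 48 averaged 10.29 in green berries and probe 49 averaged 9.89, against 8.73 and 8.59 at veraison, 8.87 and 8.72 in mature berries, 7.35 and 6.79 in roots, 9.59 and 9.22 in inflorescences, and 9.45 and 10.13 in leaves (log2, means of 2 arrays). Most of these values lie below background, and no test was made between probes.

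miR156, which declines with age in Arabidopsis, had 7 different mature probes. In the organs 1 of the 7 passed the F test and over the berry stages none did (0 unadjusted as well), against 1 and 0 of 6 for miR172. Of all 141 mature probes 25.5% passed over the organs and 0% over the berry stages (15 probes unadjusted). Probe 4, for miR156f, miR156g and miR156i, was the one that passed, with 12.81 in inflorescences, 11.07 in roots and 9.997 in leaves (log2 means). Inflorescences minus leaves was 2.82 ± 0.53 for this probe, with an adjusted p of 0.011 in limma, and roots minus inflorescences -1.74 ± 0.53, with an adjusted p of 0.030. The 3 next in range were probe 371 and probe 6 for the same miRNAs, at 2.17 and 1.62 for inflorescences minus leaves, and probe 2 for miR156b, miR156c and miR156d, at -0.90, none of which passed. Against their mismatch partners, probes 4 and 371 passed the permutation test with mean log2 ratios of 0.72 and 0.87. Probes 2 and 5 read below their partners (-1.25 and -2.01), and probes 1, 3 and 6 did not pass. The values of these last 5 probes are therefore not shown to be miR156 signal. Veraison minus green was -0.57 to 0.48 over the 7 miR156 probes, with a median of 0.09, where the median of miR172 was -2.16.

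Other families that act on regulators of flower and organ development (miR159, miR164, miR166, miR167, miR319 and miR396) had 29 different probes, of which 3 passed over the 6 tissues, 1 over the organs and none over the berry stages (2 unadjusted), against 28.4%, 25.5% and 0% of all mature probes. In roots minus inflorescences 3 of these probes fell and none rose, where 29 of all 141 mature probes fell and 11 rose. In inflorescences minus leaves 1 rose, where 6 of the 141 did. Their median for mature minus green was -0.12 and for roots minus leaves -0.26, against -2.34 and -2.31 for miR172.

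The probes of other families whose 6 tissue means were most like those of miR172, by Pearson's r and with no test, differed between miR172 probes. A probe of miR168, which acts on the mRNA of AGO1, the protein that carries most plant miRNAs, was among the 5 most alike for 5 of the 6 (probe 22, r = 0.94 with probe 572 and 0.87 with probe 569). A probe of miR164b, which acts on NAC transcription factor mRNAs, was among them for 4 (probe 414, r = 0.81 with probe 569). Probes 48 and 49 were most like a probe of miR395n (probe 57, r = 0.82 and 0.87), a miRNA of sulfate assimilation, whose means covered only 7.09 to 7.53. The means of probe 22 also covered only 9.74 to 10.62, where those of probe 572 covered 6.70 to 10.16. These correlations rest on 6 means from the same 12 arrays.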

How the data were processed

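The authors scanned 12 Cy5-labelled arrays of 6 tissues with a Perkin Elmer ScanArray. Deposited per array were each probe's median intensity and spot SD, linear and without normalization, beside a series table of intensities that the authors had quantile-normalized over all probes. Local background subtraction is not stated in the labels or methods. Slides were stripped and re-used between hybridizations, with the assignment of arrays to slides not given. Mature probes were found by the 18-base rule, and all miR172 probes were named. The members and lists were chosen with earlier results of these data known. Medians underwent quantile normalization over 1947 miRNA probes, a floor of 1 and log2 transformation. Probes of 1 sequence were averaged, and 141 sequences were fitted to 6 groups with lmFit and eBayes (limma 3.58.1, R 4.3.3), with Benjamini-Hochberg adjustment in each comparison and a threshold of 0.05. This fit was tested on simulated data. Presence and mismatch ratios used values before normalization. For the 4 comparisons between tissues, alternatives covered normalization, floor, probes, arrays, weights and a replicate block; the fit without 3 arrays was added after seeing the data. Precision is limited by 2 arrays per tissue and by low signal over background.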

Additional observations from a re-analysis of the deposited data

How the results depend on the processing

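Of the 6 miR172 probes, the number called over the 6 tissues was 0, and it became 2 with no normalization between arrays and 6 with array weights, where the calls over all 141 mature probes were 55 and 63 instead of 40. Leaving out 1 array gave 0 to 6. Over the berry stages the number was 0 and stayed so without any 1 array, but it was 3 in a fit of the 6 berry arrays only (8 over all) and 1 by the one-way test of the methods on array values at unadjusted p (8 over all). With related probes as replicates that test is 1 test of the family, counted here as 6, with an unadjusted p of 5.56e-06. It takes probes that share bases and arrays as replicates and cannot be set beside the counts of single probes. Over the organs the number was 1. It was 0 with quantile normalization over all probes, scaling to the positive controls, the deposited normalized table or adjustment over all perfect match probes. It was also 0 with only the 6 arrays of these organs and with the one-way test of the methods on array values. It was 4 with no normalization and 3 with array weights, with 61 and 43 over all mature probes instead of 36, and 0 to 5 when 1 array was left out. The 1 test of the family with related probes as replicates, counted as 6, had an unadjusted p of 2.70e-05. Over the 7 pairs, 1 call became 0 with quantile normalization over all probes, scaling to the positive controls, the deposited table, all perfect match probes, and without the 3 arrays with uneven spots. It became 7 with no normalization and 4 with array weights, and 0 to 10 when 1 array was left out. With no normalization 3 of the 7 calls were in roots minus leaves, among 18 of the 141 mature probes. The other 4 were in roots minus inflorescences, among 60. With array weights each of these pairs had 2, among 16 and 53. In the main fit 14 and 40 of the mature probes were called there, so calls rose for all mature probes as well. The counts with 1 array left out are not set beside all mature probes, since 1 tissue then has 1 array. The cause of these changes was not tested. Without leaves replicate 2, roots minus leaves was called for 5 probes.

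The replicate block left these numbers at 0, 0, 1 and 1. The labels and methods state no pairing of arrays by replicate number. Deviations of same-numbered arrays correlated by -0.61 to 0.47 over 15 pairs of tissues, 6 of them over 0.1. These correlations cannot exclude slides or batches that arrays shared, since the assignment to slides is not given.

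Signs turned only in differences that were not called. Mature minus veraison, 0.14 for probe 48 and 0.13 for probe 49, was -0.0043 and -0.0040 with no normalization, -0.016 and -0.016 with scaling to the 75th percentile, -0.19 and -0.19 with scaling to the positive controls, and -0.71 and -0.43 without the 3 arrays. Leaving out 1 array gave -0.56 to 0.84 for probe 48 and -0.40 to 0.65 for probe 49, lowest without mature berries replicate 2. Inflorescences minus leaves for probe 48, 0.14, was -0.15 with scaling to the 75th percentile and -1.28 to 1.56 when 1 array was left out. For probe 49, -0.91, it was 0.19 with no normalization, 0.63 with scaling to the positive controls and -2.33 to 0.51 when 1 array was left out. Green berries minus inflorescences for probe 49, 0.67, was -0.012 to 1.35 when 1 array was left out.

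Presence was 0 tissues with 3 SD, with a ratio of 1.5 and with no ratio, 2 without the ubiquitin control, 4 with the median plus 2 scaled MAD, 3 when either array sufficed, and 0 to 1 when 1 array was left out. The perfect match ratio, 4.87 on the log2 scale, was 9.80 over arrays above background, too few for its test, and 4.36 to 5.27 without any 1 array. The alternative on mature probes present in at least 1 tissue gave no value, since no miR172 probe is among them. The fit without 3 arrays was chosen after seeing the data.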
